A study of Mus musculus with 8 samples.

Results

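The genes described here are 9 widely reported targets of miR-21: Pdcd4, Spry1, Spry2, Reck, Peli1, Btg2, Tpm1, Jag1 and Rhob. They were taken by gene symbol from the 53247 genes of the deposited expression table, where each was found once, and were compared between TAMs (tumor-associated macrophages) that carry or lack miR-21, to see which were derepressed. The TAMs had been sorted by FACS for 4 surface proteins, F4/80, MHC II, CD11b and CD45, out of subcutaneous LLC (Lewis lung carcinoma) tumors on day 14 after implantation. The hosts were either WT or miR-21 null (miR-21-/-) mice of the C57/BL6 strain, 8 weeks old at implantation and 10 weeks old at collection. There were 4 samples per genotype. miR-21 was missing from every cell of the null hosts, not from macrophages alone, while the implanted LLC cells were the same in both groups. Replicate 1 of the miR-21-/- group is titled with a pair of numbers, and whether it is a pool is not stated, so it was counted as 1 sample.

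A microRNA guides the RNA-induced silencing complex to the 3′ UTR of an mRNA by pairing of its seed, the bases near its 5′ end, which lowers translation and shortens the life of the mRNA. Loss of a microRNA can therefore raise the mRNA of a target, although a target can also be held at the level of translation, which RNA-Seq does not measure. miR-21 is abundant in macrophages and in many tumors. The 9 genes hold different roles. Pdcd4 blocks the translation initiation helicase eIF4A, Spry1 and Spry2 are feedback inhibitors of receptor tyrosine kinase and ERK signaling, and Reck is a membrane-bound inhibitor of matrix metalloproteinases. Peli1 is a ubiquitin ligase of Toll-like and IL-1 receptor signaling, Btg2 is an antiproliferative gene of the p53 response, Tpm1 encodes an actin-binding tropomyosin, Jag1 a Notch ligand and Rhob a small GTPase.

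The mature miR-21a-5p sequence of RefSeq (GRCm38.p6, chr11:86584120-86584141, minus strand) is shown with its seed, bases 2 to 8, in capitals, because the sites below were searched with it.
miR-21a-5p: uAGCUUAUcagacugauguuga

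The seed pairs with ATAAGCT, and an A after it makes the longest site, ATAAGCTA (8mer). Sites of 7 bases are ATAAGCT without that A (7mer-m8) and TAAGCTA (7mer-A1). Searching the longest 3′ UTR annotated for a gene (GENCODE vM21, GRCm38, on the strand of the transcript) showed that 8 of the 9 genes held 1 site of 7 or 8 bases, and 6 of these were 8mers. The 22 bases that lie opposite miR-21 are given for each site, with the match in capitals, since they set the genes with a full site (Pdcd4, Spry1, Spry2, Reck, Peli1, Jag1) apart from those with a shorter one (Btg2, Rhob).
Pdcd4 (chr19:53929418-53929439, plus strand): gtgtgggtgttctgATAAGCTA
Spry1 (chr3:37643859-37643880, plus strand): atgtaagtgcttaaATAAGCTA
Spry2 (chr14:105892498-105892519, minus strand): gagacccacattgcATAAGCTA
Reck (chr4:43944393-43944414, plus strand): ttttacagtttgaaATAAGCTA
Peli1 (chr11:21148541-21148562, plus strand): tgcattgtaagtttATAAGCTA
Jag1 (chr2:137081738-137081759, minus strand): tagggagtattctcATAAGCTA
Btg2 (chr1:134075452-134075473, minus strand): atagtggtaagtttgTAAGCTA
Rhob (chr12:8497718-8497739, minus strand): tacataagagttctATAAGCTg

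Of all tested genes whose 3′ UTR is annotated, 2.24% held an 8mer and 12.5% a site of 7 or 8 bases, and since reported targets are often picked by such a site, its frequency in the 9 genes is a description only. The site of Peli1 begins at base 32 of a 3′ UTR of 1800 bases, close behind the stop codon. Those of Jag1 (base 1279 of 1568), Reck (base 1042 of 1441), Btg2 (base 1911 of 2199) and Rhob (base 1317 of 1381) lie near the far end. Those of Pdcd4 (base 289 of 717), Spry1 (base 322 of 1047) and Spry2 (base 298 of 856) lie in the first part. Tpm1 held no site of 6, 7 or 8 bases in its longest 3′ UTR of 1899 bases, and none of 7 or 8 bases in any of its 16 coding transcripts with an annotated 3′ UTR. In Pdcd4, 2 of 3 such transcripts held the site. Beyond the seed, pairing without gaps to positions 13 to 16 of miR-21 was 2 of 4 bases in Rhob, 1 of 4 in Peli1, Jag1 and Btg2, and 0 of 4 in Pdcd4, Spry1, Spry2 and Reck.

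The values of the table are CPM, counts per 1e+06 reads, each raised by 0.0001. Depth, estimated from the spacing of low values, was 20.2 to 33.3 in units of 1e+06 reads per sample, so that 3 reads were worth 0.0900 to 0.149 CPM. The deleted gene, Mir21a, was listed at 0.0001 CPM in all 8 samples and could not check the genotype labels. All 12 macrophage markers looked up were detected, with summed levels of 14747 to 16027 CPM in WT samples and 13272 to 15111 CPM in miR-21-/- ones. Of these markers Fcgr1 was called higher (0.75 as log2 fold change). Csf1r (-0.48) and Adgre1 (-0.38), which encodes F4/80, were lower in all 4 miR-21-/- samples and under the fold change limit. The adjusted p from limma was 0.00137 for Adgre1 and 0.00525 for Csf1r, the latter also over the limit of 0.005. Genes of other cells were also present, and in bulk samples fewer cells of a type and less RNA per cell cannot be told apart. The sort for F4/80, MHC II, CD11b and CD45 is meant to leave out cells without these proteins. How RNA of such genes came into the samples was not tested. The summed level of 8 fibroblast markers was 70.5 to 148 CPM in WT samples and 18.8 to 51.0 CPM in miR-21-/- ones, without overlap. Of these 8 markers, 4 (Col1a1, Col3a1, Pdgfra and Pdgfrb) were past the threshold, all lower in miR-21-/- TAMs. Thy1 went the other way (0.38 as log2 fold change) and overlapped between the genotypes. The sum of 7 neutrophil markers was 822 to 1236 CPM in WT samples and 607 to 789 CPM in miR-21-/- ones, also without overlap. It was mainly S100a9, Csf3r and S100a8, at means of 369, 313 and 199 CPM in WT. Ly6g went the other way (0.31 as log2 fold change) and overlapped, while the other neutrophil markers had lower means. The sum of 6 epithelial or LLC tumor cell markers was 19.9 to 26.3 and 13.7 to 18.4 CPM, again without overlap. The sum of 8 endothelial markers overlapped (155 to 306 and 204 to 293 CPM) and was mainly Pecam1 (means of 192 and 218 CPM). Of the other endothelial markers Egfl7, at means of 0.89 and 0.38 CPM, was lower without overlap, and the rest overlapped. Sums also overlapped for 8 T and NK cell markers (10.8 to 13.5 and 8.03 to 35.1 CPM) and 8 dendritic cell markers (22.2 to 34.6 and 23.1 to 49.2 CPM). The sum of 5 B cell markers was 11.4 to 17.6 CPM in WT samples and 3.84 to 11.3 CPM in miR-21-/- ones, close together but without overlap. Among the markers of these other cells, the B cell marker Cd79b (-1.45 as log2 fold change), the dendritic cell marker Dpp4 (-1.04) and the neutrophil marker Mmp8 (-0.81) were also called lower. None was called higher. The dendritic cell marker Clec9a (1.26) and the T cell marker Cd8a (1.28) were nevertheless higher in all 4 miR-21-/- samples. Their adjusted p from limma, 0.00532 and 0.00806, was over the limit. Cd8b1 (0.69), Cd3g (0.29), Cd3e (0.26), Cd3d (0.0019) and Lck (-0.061), also T cell markers, overlapped between the genotypes. The dendritic cell markers Xcr1 (1.06), Ccr7 (-0.031), Batf3 (-0.19), Zbtb46 (-0.41), Flt3 (-0.50) and Cd209a (-1.28) overlapped as well.

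Per length of exon, the level of the 9 genes in WT TAMs spanned from Rhob, at 100.6 ± 17.9 CPM per kb (SD, n = 4), to Reck, at 0.0410 ± 0.0186 CPM per kb. The order in WT was Rhob, Btg2, Tpm1, Peli1, Pdcd4, Spry2, Jag1, Spry1 and Reck, and no neighbours in it overlapped between their 4 samples. In miR-21-/- TAMs Peli1, at 14.0 ± 0.167 CPM per kb, stood above Tpm1, at 7.14 ± 0.536 CPM per kb, the reverse of their order in WT (7.92 ± 0.419 and 11.4 ± 1.31 CPM per kb). In these TAMs the neighbours Pdcd4 and Spry2, Spry2 and Jag1, and Spry1 and Reck overlapped.

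**Figure D1:**
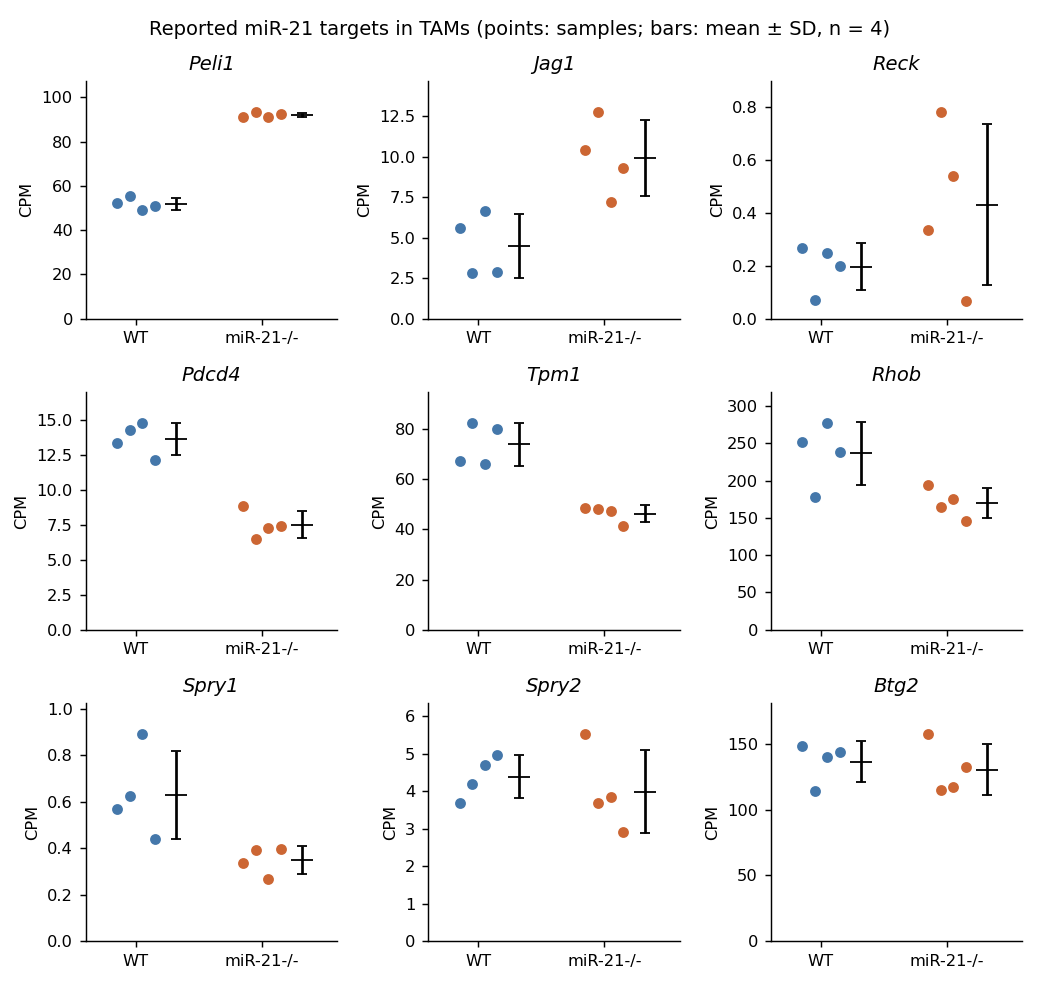
CPM of each of the 9 genes on an axis from 0, with 1 point per sample (WT in blue, miR-21-/- in orange) and the mean ± SD of 4 samples beside them. The 4 miR-21-/- points of Peli1 and Jag1 lie above all WT points, those of Pdcd4, Tpm1 and Spry1 lie below them, and the points of Reck, Rhob, Spry2 and Btg2 overlap.

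Of the 9 genes, 7 had a mean of at least 1 CPM and were tested in a limma fit over 13363 genes on the log2(CPM + 1) scale, and Spry1 and Reck were below this filter. The log2FC (log2 fold change) is miR-21-/- over WT on that scale, SE is its standard error, and p-values were adjusted over all tested genes by the Benjamini-Hochberg method. The study states its limits as a fold change over 1.5 with an adjusted p of at most 0.005. By these, 1 of the 7 genes rose in miR-21-/- TAMs (Peli1) and 2 fell (Pdcd4 and Tpm1). The background was 2.97% of all tested genes higher and 4.27% lower, 7.24% in either direction. At an adjusted p of 0.05 with no fold change limit, 2 were higher (Peli1 and Jag1) and 3 lower (Pdcd4, Tpm1 and Rhob), against a background of 9.74% higher and 27.1% lower (36.8% in either direction). The samples of the genotypes did not overlap in 2 of the 7 genes that were higher (Peli1 and Jag1) and 2 that were lower (Pdcd4 and Tpm1), beside 9.61% and 26.1% of all tested genes (35.7% in either direction). Over all tested genes 397 were called higher and 570 lower, a split that became 513 and 339 after rescaling by the median of ratios and 486 and 324 after quantile normalization. The median log2FC of the 7 genes was -0.13, beside -0.10 over all tested genes.

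**Figure D2:**
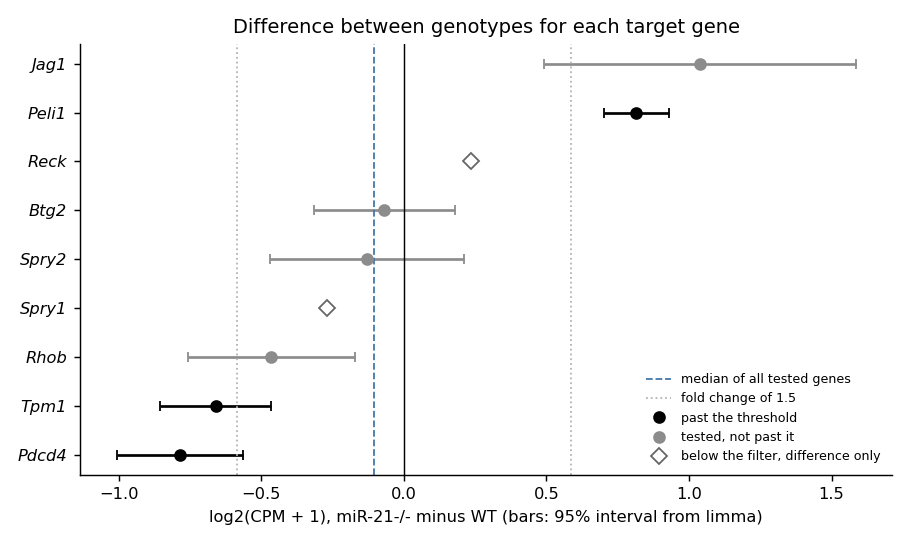
Difference between genotypes on the log2(CPM + 1) scale for each gene, with the 95% interval from limma for the 7 tested genes. Black points passed the adjusted p and the fold change of 1.5 (dotted lines), open diamonds are Spry1 and Reck, which were not tested in the fit, and the dashed line is the median of all tested genes at -0.10.

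Peli1 (chromosome 11, 21091291 to 21150323) was the clearest case of a higher target. It was at 52.3, 55.4, 48.9 and 51.0 CPM in WT samples 1 to 4 and at 91.1, 93.4, 91.2 and 92.5 CPM in miR-21-/- samples 1 to 4. All 4 miR-21-/- samples lay above all WT samples, and the spread within each genotype was small beside the gap. The means were 51.9 ± 2.74 and 92.1 ± 1.09 CPM (SD, n = 4 each), with a log2FC of 0.82 (SE 0.051, adjusted p = 7.11e-06). The call held under all 8 other pseudocounts, filters, scalings and models, with values of 0.72 to 0.93, and in all 8 fits that left out 1 sample.

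Jag1 (chromosome 2, 137081456 to 137116644) was also higher, with a wider spread. WT samples 1 to 4 were at 5.62, 2.80, 6.68 and 2.87 CPM and miR-21-/- samples 1 to 4 at 10.4, 12.8, 7.18 and 9.33 CPM. The groups did not overlap, but the WT samples lay in 2 pairs, replicates 1 and 3 above replicates 2 and 4, and the highest WT sample came near the lowest miR-21-/- sample. Its log2FC of 1.04 (SE 0.25, 95% interval 0.49 to 1.58) was the highest among the 7 genes, but its adjusted p of 0.00899 from limma was over the limit of 0.005. In the fits without 1 sample the adjusted p was 0.00530 to 0.0279 and the log2FC 0.88 to 1.22. With a pseudocount of 10 the log2FC was 0.46, under the fold change limit. That pseudocount is above the mean of either genotype (4.49 and 9.92 CPM) and draws the log2FC toward 0 by arithmetic. The ratio of these means, miR-21-/- over WT, was 2.21. Jag1 did pass with a replicate block on the numbers in the sample titles (adjusted p = 0.00313 from limma). Nothing says that these numbers mark a pairing, and the block was chosen after seeing the data. Peli1 and Jag1 both carry an 8mer.

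Pdcd4 (chromosome 19, 53892231 to 53929861), one of the best known targets of miR-21, went the other way. It was at 13.4, 14.3, 14.7 and 12.1 CPM in the WT samples and at 8.85, 6.46, 7.29 and 7.44 CPM in the miR-21-/- samples. Each miR-21-/- sample was below each WT sample, with 190 to 237 reads per sample in miR-21-/- and 298 to 412 in WT. The log2FC was -0.79 (SE 0.099, adjusted p = 0.000374), although its 3′ UTR holds the 8mer printed above. In each of the fits without 1 sample Pdcd4 stayed past the threshold (-0.86 to -0.72). With a pseudocount of 10 it was under the fold change limit, at -0.43 (adjusted p = 0.000368 from limma). A pseudocount near the level of a gene draws its log2FC toward 0 by arithmetic. The ratio of the mean CPM of Pdcd4, miR-21-/- over WT, was 0.55. Its gene span shares 185 bases with Bbip1 on the other strand, at 17.7 ± 1.33 CPM in WT TAMs and 19.3 ± 1.09 CPM without miR-21, and the annotated exons of these genes share 0 bases. The sums of fibroblast, neutrophil, B cell (mainly through Cd79b) and epithelial or LLC tumor cell markers were lower in the same miR-21-/- samples. The part of these sums in the results for Pdcd4 and the other lower genes was not tested.

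Tpm1 (chromosome 9, 67022590 to 67049406), the gene without a site, was at 67.1, 82.3, 66.1 and 80.1 CPM in the WT samples and at 48.7, 48.1, 47.2 and 41.1 CPM in the miR-21-/- samples. The groups lay well apart, and replicate 4 was the lowest of the miR-21-/- samples. The log2FC was -0.66 (SE 0.087, adjusted p = 0.000471). It was under the fold change limit after rescaling by the median of ratios (-0.55) and with a pseudocount of 10 (-0.57), while its adjusted p stayed at or under 0.00362 in the other settings. The summed fibroblast markers of the same samples, in the same order, were at 101.1, 70.5, 93.0 and 148 CPM in WT and at 22.7, 51.0, 19.4 and 18.8 CPM in miR-21-/- samples. The part of these and of the other lower marker sums in the result was not tested.

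Rhob (chromosome 12, 8497661 to 8500009), which holds a 7mer-m8, was at 252, 178, 277 and 238 CPM in the WT samples and at 193, 164, 175 and 145 CPM in the miR-21-/- samples. WT replicate 2 was lower than miR-21-/- replicate 1, and the other 3 WT samples were above all miR-21-/- samples. The log2FC of -0.47 (SE 0.13, 95% interval -0.76 to -0.17) had an adjusted p of 0.0203 from limma and was not past the threshold. Without WT replicate 2 it passed (-0.59, adjusted p = 0.00309), while without WT replicate 1 (0.0501), WT replicate 3 (0.0566) or miR-21-/- replicate 4 (0.0524), and with no filter on low values (0.0728), the adjusted p was over 0.05 as well. After rescaling by the median of ratios it was -0.35 (adjusted p = 0.0775).

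For Btg2 and Spry2 no difference beyond the spread between replicates was seen. Btg2 (chromosome 1, 134075170 to 134079120) was at 149, 114, 140 and 144 CPM in the WT samples and at 158, 116, 117 and 132 CPM in the miR-21-/- samples. The highest of these samples was miR-21-/- and the lowest WT, and the log2FC was -0.069 with a 95% interval of -0.32 to 0.18 (adjusted p = 0.657). Spry2 (chromosome 14, 105891947 to 105896819) was at 3.68, 4.19, 4.70 and 4.98 CPM in the WT samples and at 5.52, 3.69, 3.84 and 2.91 CPM in the miR-21-/- samples. Its highest and its lowest value both came from miR-21-/- samples, and the log2FC was -0.13 with a 95% interval of -0.47 to 0.21 (adjusted p = 0.537). Both intervals end below the fold change limit of 1.5, which is 0.585 on the log2 scale.

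**Figure D3:**
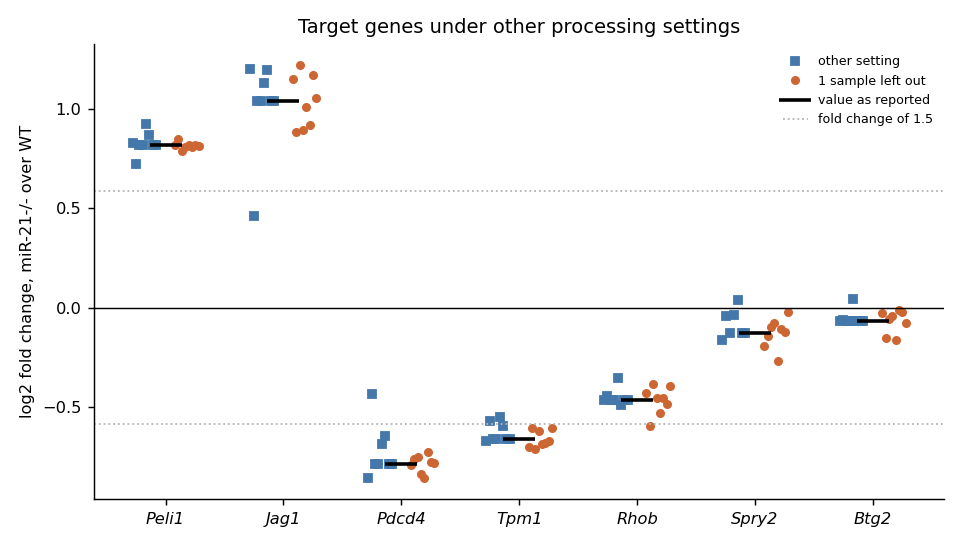
Log2 fold change of the 7 tested genes as reported (black bar), under other settings (blue squares) and with 1 sample left out (orange points), with the fold change of 1.5 as dotted lines. Peli1 stays between 0.72 and 0.93, Pdcd4 and Tpm1 stay negative, and Spry2 and Btg2 sit near 0 and change sign in 1 setting each.

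Spry1 and Reck were near the limit of detection. Spry1 (chromosome 3, 37639947 to 37644598) was at 0.568, 0.623, 0.891 and 0.438 CPM in the WT samples and at 0.336, 0.390, 0.269 and 0.397 CPM in the miR-21-/- samples, that is 11 to 18 and 7 to 13 reads. The CPM did not overlap (exact permutation test over 70 splits, two-sided, p = 0.0286, the smallest that 4 samples against 4 allow), whereas the read numbers of the genotypes did, since the libraries differ in depth. When limma was run on every listed gene above the minimum value, Spry1 had an adjusted p of 0.0834. Marker sums of the same 4 kinds of cell, that of B cells mainly through Cd79b, were lower in the miR-21-/- samples. Their part in the result was not tested. Reck (chromosome 4, 43875530 to 43944806) was at 0.268, 0.0694, 0.247 and 0.199 CPM in the WT samples and at 0.336, 0.780, 0.538 and 0.0662 CPM in the miR-21-/- samples, or 2 to 8 and 2 to 26 reads. The highest and the lowest sample were both miR-21-/-, and the groups overlapped (exact permutation test, two-sided, p = 0.229). Without miR-21-/- replicate 4, the lowest, the difference on the log2(CPM + 1) scale was 0.37 in place of 0.24 (exact permutation test, two-sided, p = 0.0286), and without miR-21-/- replicate 2, the highest, it was 0.12 (exact permutation test, two-sided, p = 0.457).

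The site alone did not sort the genes by direction. Of the 6 genes with an 8mer, 4 were tested, of which Peli1 rose, Pdcd4 fell, and Jag1 and Spry2 did not pass the threshold. Among all 251 tested genes with an 8mer, 5.98% were called higher and 5.98% lower, and their median log2FC was -0.012. Among the 9820 tested genes with no site of 7 or 8 bases, 3.02% were called higher and 4.78% lower, with a median of -0.12. With 7 bases included, the 1397 genes with a site were called higher in 3.22% and lower in 4.51%. At an adjusted p of 0.05, genes with an 8mer were higher in 20.3% and lower in 18.3%, those with a site of 7 or 8 bases in 14.7% and 23.2%, and those without in 9.27% and 30.0%. These classes share all samples, and the difference between them was not tested. Genes with an 8mer had longer 3′ UTRs (median 3067 bases) than genes with no such site (1033 bases), and the part of this in the result was not tested.

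**Figure D4:**
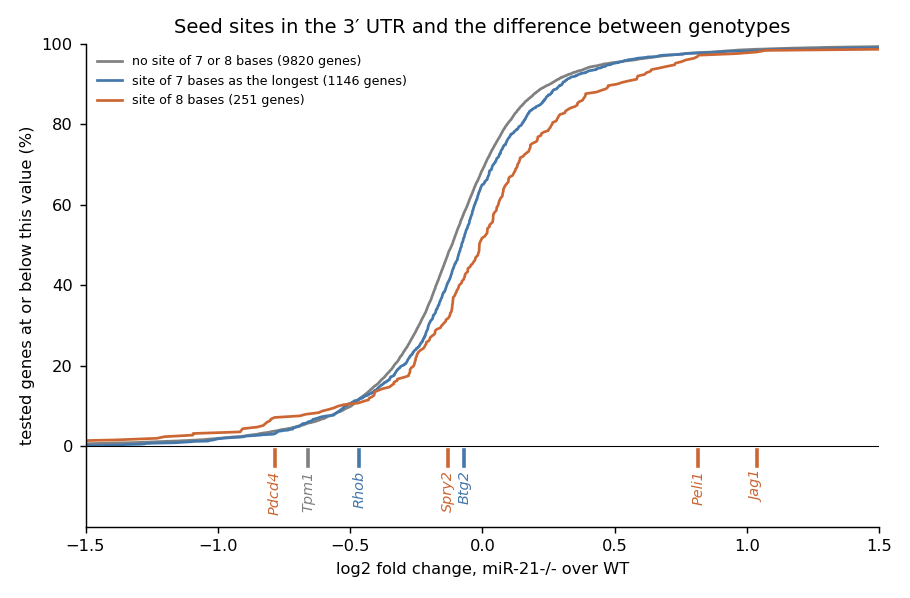
Share of tested genes at or below each log2FC, for genes with no site of 7 or 8 bases (grey), with 7 bases as the longest site (blue) and with an 8mer (orange), with the 7 tested targets as ticks below in the colour of their site. The curve of genes with an 8mer lies to the right of the grey curve around 0, with medians of -0.012 and -0.12, and the ticks lie on both sides of 0.

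The paralogs of these genes were set beside them as relatives that mostly lack the site. Of 16 paralogs, 13 were tested, none rose and 1 fell past the threshold (at an adjusted p of 0.05, 2 were higher and 3 lower, and at an unadjusted p under 0.05, 3 and 4), and their median log2FC was -0.050. Of all tested genes, 2.97% rose and 4.27% fell past the threshold, 9.74% were higher and 27.1% lower at an adjusted p of 0.05, and 12.5% and 34.6% at an unadjusted p under 0.05. Btg1 held a 7mer-m8, and none of the other paralogs with an annotated 3′ UTR held a site of 7 or 8 bases. Peli2, another Pellino ligase, was at 4.68 ± 2.73 CPM in WT TAMs and, without miR-21, 5.38 ± 1.36 CPM (SD, n = 4 each), with a log2FC of 0.28 and a 95% interval of -0.42 to 0.98. Jag2, the other Jagged ligand, was at 3.12 ± 1.10 and 1.77 ± 0.359 CPM, with a log2FC of -0.55 (adjusted p = 0.0360), opposite in sign to Jag1. Tpm2 fell from 5.32 ± 0.876 to 2.84 ± 0.618 CPM, with a log2FC of -0.72 (adjusted p = 0.00392), and like Tpm1 it has no site of 7 or 8 bases. The more abundant tropomyosins Tpm3 (398 ± 11.5 and 436 ± 4.89 CPM) and Tpm4 (260 ± 17.2 and 235 ± 12.1 CPM) had log2FCs of 0.13 and -0.15 and did not pass the threshold. Beside Rhob, the related GTPases Rhoa and Rhoc had log2FCs of -0.030 and 0.032. Reads that fit several tropomyosins, or several of these GTPases, could be shared between them, so these values are uncertain to that degree.

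The Sprouty-related genes Spred1 and Spred2 had log2FCs of -0.056 and -0.050 (Spry2 had -0.13), while Spred3 was at 14.4 ± 0.860 CPM in WT TAMs and 21.4 ± 2.21 CPM without miR-21 (0.53, adjusted p = 0.00108), just under the fold change limit. Of the relatives of Btg2, Btg1 was at 365 ± 24.7 and 481 ± 36.5 CPM (0.40, adjusted p = 0.00245) and Tob2 at 92.0 ± 1.29 and 74.7 ± 4.40 CPM (-0.30, adjusted p = 0.00206), and both stayed under the fold change limit. Tob1 (log2FC -0.10) overlapped between the genotypes.

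**Figure D5:**
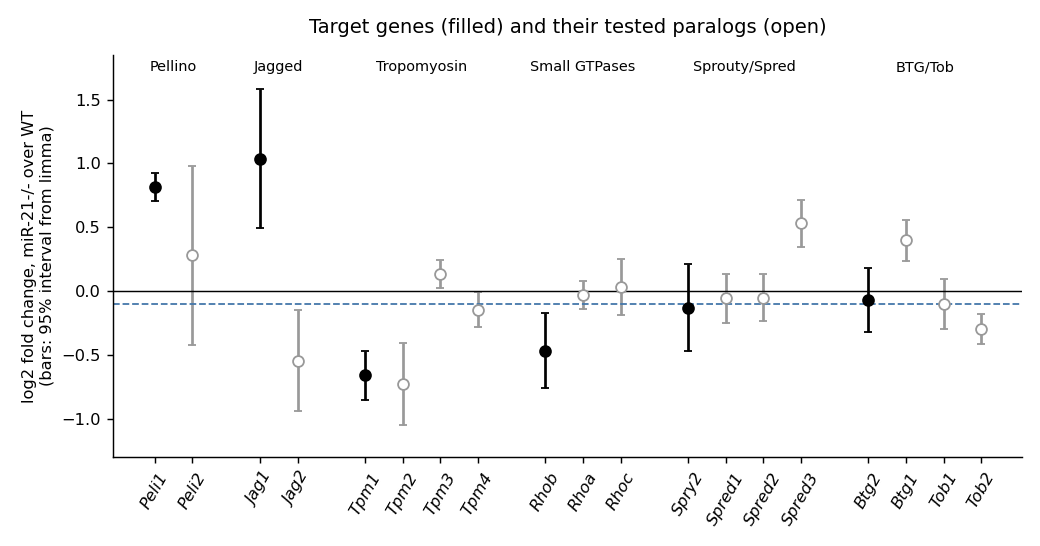
Log2 fold change with the 95% interval from limma for the tested targets (filled) and their tested paralogs (open), by family, with the median of all tested genes dashed at -0.10. Jag1 (1.04) and Jag2 (-0.55) have opposite signs, whereas Tpm1 (-0.66) and Tpm2 (-0.72) are both lower.

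The genes of the pathways around the targets were counted in the same limma fit, with the same shares of all tested genes as background (7.24% past the threshold in either direction, 9.74% higher and 27.1% lower at an adjusted p of 0.05, and 12.5% and 34.6% at an unadjusted p under 0.05). Of 13 genes listed for Pdcd4, the eIF4A translation complex and regulators of these, none passed the threshold. At an adjusted p of 0.05 there were 0 higher and 4 lower (1 and 6 at an unadjusted p under 0.05), with a median log2FC of -0.13. Eif4a1, the helicase that Pdcd4 binds, was at 286 ± 13.6 CPM in WT TAMs and 281 ± 9.42 CPM without miR-21 (-0.025). Of 25 genes of the ERK pathway and its feedback, which Spry1 and Spry2 restrain, none passed the threshold, and 2 were higher and 7 lower at an adjusted p of 0.05 (also 2 and 7 at an unadjusted p under 0.05, median -0.070). Among these the ERK phosphatases Dusp6 and Dusp5 had log2FCs of -0.34 and 0.50, the ERK-induced factor Etv4 one of -0.67 and the kinase Braf one of 0.37.

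Of 11 metalloproteinases and related genes set beside Reck, 2 rose and 1 fell. Mmp13, a collagenase, rose from 380 ± 64.4 to 877 ± 145 CPM (log2FC 1.20, adjusted p = 0.000282), and Mmp19 from 61.6 ± 11.3 to 115 ± 10.8 CPM (0.90, adjusted p = 0.000712). Mmp8, a neutrophil collagenase, fell from 61.3 ± 6.52 to 35.2 ± 8.58 CPM (-0.81, adjusted p = 0.00380). It fell in the samples with lower sums of neutrophil markers, a list that holds Mmp8 itself. Mmp2 was lower in all 4 miR-21-/- samples, at 21.0 ± 2.52 and 11.3 ± 3.92 CPM (-0.90). Its adjusted p from limma, 0.00868, was over the limit.

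Of 18 genes of Toll-like and IL-1 receptor signaling around Peli1, none passed the threshold, and 2 were higher and 5 lower at an adjusted p of 0.05 (5 and 6 at an unadjusted p under 0.05, median 0.017). The adaptor Myd88 (169 ± 8.17 and 171 ± 7.56 CPM) and the ligase Traf6 (43.6 ± 4.16 and 42.6 ± 2.35 CPM) had log2FCs of 0.019 and -0.029. Of 11 genes of the p53 response and the CCR4-NOT deadenylase around Btg2, 1 rose, Cdkn1a, an inhibitor of cell cycle kinases, from 123 ± 21.9 to 204 ± 8.17 CPM (0.74, adjusted p = 0.000932). At an adjusted p of 0.05, 3 of these 11 were higher and 1 lower (4 and 4 at an unadjusted p under 0.05, median 0.11). Mdm2 was among the higher ones, at 79.6 ± 3.55 and 113 ± 3.62 CPM (0.50, adjusted p = 0.000108), under the fold change limit. Trp53 itself had a log2FC of -0.097. Of 16 tested genes of the actin cytoskeleton around Tpm1 and Rhob, none passed the threshold, and 3 were higher and 3 lower at an adjusted p of 0.05 (4 and 4 at an unadjusted p under 0.05, median -0.056).

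Around Jag1, 12 of 18 genes of the Notch pathway were tested, of which none rose and 2 fell (1 higher and 5 lower at an unadjusted p under 0.05). Hes1, a direct target gene of Notch, fell from 14.6 ± 2.26 to 6.13 ± 2.61 CPM (log2FC -1.19, adjusted p = 0.00341), and Dtx4, a Deltex ligase, from 31.0 ± 2.53 to 17.2 ± 0.410 CPM (-0.81, adjusted p = 3.39e-05). The receptor Notch2, which holds an 8mer, was at 256 ± 15.1 and 336 ± 27.6 CPM (0.39, adjusted p = 0.00244), under the fold change limit. Hes1 and Dtx4 thus had the opposite sign to the ligand Jag1 in the same samples.

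A further list of 20 reported targets, written from general knowledge, had 15 tested genes. None rose and 1 fell past the threshold, the TGF-β receptor gene Tgfbr2, from 245 ± 28.3 to 141 ± 8.17 CPM (log2FC -0.79, adjusted p = 0.000136), which holds a 7mer-m8. At an adjusted p of 0.05, 5 were higher (Tiam1, Cdc25a, Bcl2, Yod1 and Zfp367) and 3 lower, Tgfbr2 among them, and at an unadjusted p under 0.05 there were 5 and 4. The shares over all tested genes were 2.97% and 4.27% past the threshold, 9.74% and 27.1% at an adjusted p of 0.05, and 12.5% and 34.6% at an unadjusted p under 0.05. The 5 higher genes had log2FCs of 0.47, 0.38, 0.55, 0.36 and 0.59, in that order, and Yod1 and Zfp367 each hold 2 sites of 8 bases. The median of the 15 genes was 0.082.

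For the 3 called targets, the genes with the most similar profile were found by the root mean square difference of log2(CPM + 1) values, each centred on its mean, over the 8 samples. For Peli1 these were Gm16675 (0.0753) and Slc31a2, a copper transporter gene (0.0902), for Pdcd4 Asrgl1 (0.0706) and Patz1 (0.0817), and for Tpm1 Ift81 (0.0566) and Cdr2l (0.0706). The median difference to all other tested genes was 0.480 for Peli1, 0.387 for Pdcd4 and 0.334 for Tpm1.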

How the data were processed

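The authors deposited 1 table of CPM values, each raised by 0.0001, with 8 sample columns and 53247 genes. The submitters' processing notes name STAR, Partek 7.0 and mm10, and the counting rule and strand are not given in the sources used here. Up to 20 reads, 73.4% to 74.3% of the values of a sample were whole reads (within 0.02), so whole counts were not recovered and no count test was run. Groups came from the genotype label. The 9 genes and all lists were chosen with earlier results of these data known.

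log2(CPM + 1) values of the genes at or above a mean of 1 CPM entered a limma fit (version 3.58.1, R 4.3.3), with the eBayes trend on. The threshold was a fold change over 1.5 with an adjusted p of at most 0.005. Genes below the filter were compared with exact permutation tests. P-values measure the spread between samples labelled as biological replicates. The fit was tested on simulated data. 3′ UTRs were those of protein-coding transcripts of GENCODE vM21 (GRCm38), in which all 9 genes start where the table has them. Named are the 9 genes, the called genes of a list (at most 4), paralogs and nearest profiles. Bbip1, Eif4a1, Dusp5, Dusp6, Etv4, Braf, Mmp2, Myd88, Traf6, Trp53, Mdm2 and Notch2 were named after their values were seen. So were the single markers and the other reported targets higher at an adjusted p of 0.05. Some genes of that list are counted but not reported here by name. Alternatives were other pseudocounts, filters, scalings and limits, eBayes without the trend, blocking on the numbers in the sample titles, fits without each sample in turn, and any annotated 3′ UTR. Figures were drawn with matplotlib 3.10.9.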

Additional observations from a re-analysis of the deposited data

How the results depend on the processing

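Of the 9 genes, Peli1 kept its call in every fit run, and Jag1 was called only with an adjusted p of 0.05 as the limit and with the replicate block. The number of the 7 tested genes past the threshold and higher moved from 1 to 2 at an adjusted p of 0.05, with or without the fold change limit. The number lower moved from 2 to 0 with a pseudocount of 10 and to 1 after the median of ratios. A pseudocount of 10 draws log2FCs toward 0 by arithmetic, most for genes near or below that level. With 1 sample left out, 1 to 1 were higher and 2 to 3 lower. Spry2 reversed to 0.038 after quantile normalization and Btg2 to 0.041 after the median of ratios; the cause was not tested. Spry2 could not be fitted with a filter at a mean of 5, which removes it. In the exact permutation test Spry1 had p = 0.0857 after quantile normalization (difference -0.20). Without any 1 of the miR-21-/- samples its p in that test, over 35 splits, was 0.0571 and the difference -0.29 to -0.24. Without any 1 of the WT samples its p was 0.0286, the smallest that 35 splits allow. The 8 genes with a site of 7 or 8 bases were 8 when any annotated 3′ UTR counted.

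Over all tested genes, 397 were higher and 570 lower. A pseudocount of 10 gave 251 and 202. With no filter, 245 were lower, and after the median of ratios 339 (beside 513 higher) and after quantile normalization 324 (beside 486 higher). Rescaling by the median of ratios moved the median of all genes from -0.10 to -0.0024. An adjusted p of 0.05 with no fold change limit gave 1302 and 3615, with the limit 870 lower, and 0.005 without it 639 and 1335. Leaving out 1 sample gave 313 to 382 higher and 361 to 596 lower, with the fewest lower without WT replicate 2 (361) and WT replicate 3 (379).

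The title of miR-21-/- replicate 1 holds the pair 1 and 2, the numbers of WT replicates 1 and 2, and cannot be matched to 1 of them. Of single numbers, titles of both genotypes share 3 and 4 only (WT replicates 3 and 4, miR-21-/- replicates 2 and 3). Nothing says that these mark a pairing: the correlations of the samples numbered 3 or 4, as deviations from their group means, were 0.14 and 0.034. With the replicate block on these numbers and the other 4 samples in 1 level, chosen after seeing the data, 365 genes were higher and 478 lower. Of the 7 genes, 2 were then higher, since Jag1 passed (adjusted p = 0.00313), and 2 lower. Spry1 and Reck rest on 2 to 26 reads per sample.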
